A study of Mus musculus with 2 samples.

Results

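Strongly H3K9me2-marked regions are the 612 regions, of 21753 on chromosomes 1 to 7 and 9 to 19 and 23946 in the whole deposited table, whose H3K9me2 signal summed over both libraries and the whole window was at least 50. H3K9me2 is dimethylation of lysine 9 on histone H3. Chromatin immunoprecipitation and sequencing was performed with 1 library of Emerald-positive cells (the high fraction) and 1 library of Emerald-negative cells, sorted by fluorescence from the MC1-ZE7 line of mouse embryonic stem (ES) cells, strain MC1 (129S6/SvEvTac), grown without feeders in serum and LIF. Both libraries were made with the same antibody, and the series' design text names the populations as Zscan4 positive and negative. In this line Emerald is a reporter driven by a Zscan4 promoter, so the groups are fractions of 1 engineered line and not knockouts. With 1 library per population no test between populations was possible, and every interval below covers counting error only. The reads carry no molecular identifiers, so they need not be independent molecules.

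H3K9me2 is written mainly by the paired methyltransferases G9a and GLP, is removed by demethylases of the KDM3 family and is read by proteins that keep chromatin compact. In mammalian cells it typically forms broad, low domains over silent chromatin instead of sharp peaks, while active promoters lack it. ES cells carry less of it than differentiated cells, and Zscan4 marks a short-lived ES cell state that resembles the early embryo and is linked to telomere maintenance and open chromatin.

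The table gives a scaled signal in 50 bins of 200 bp around the middle of each region, with positions in the mouse build mm9. One read was worth 1.12 units of signal in the Emerald-positive and 0.902 units in the Emerald-negative library, so whole reads could be recovered. The strongly marked regions held 24100 Emerald-positive and 28994 Emerald-negative reads, and the other 21141 regions of the same chromosomes held 167510 and 206072. A strongly marked region had a median of 27.5 reads (range 12 to 440) in the Emerald-positive and 33 reads (range 15 to 571) in the Emerald-negative library. Genes are not part of the table, so regions are named by position. No input library was used here, so extra copies of a sequence, reads that map to repeats and strong marking cannot be told apart at any of them.

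The level itself chose the regions and is given as a description. Strongly marked regions made up 2.81% of the regions on their chromosomes and held 12.5% of the signal there. Their summed signal had a median of 57.9 and reached 1008, against a median of 14.8 in the other regions. Most stood close to the threshold: 345 (56.4%) lay under 60, 157 between 60 and 100, and 110 at 100 or more, of which 39 reached 200. The 3 regions just above the threshold, chr18:57670449-57672002, chr1:105464236-105466018 and chr11:29538275-29539667, each had 50.04, from 27 Emerald-positive and 22 Emerald-negative reads. The 3 just below, chr3:15112864-15113244, chr19:21968799-21969429 and chr7:110547197-110547697, had 49.86 to 49.87, from 18 and 33 reads. Because an Emerald-positive read weighs 1.24 times as much as an Emerald-negative one, the threshold let in regions with fewer reads but more of them Emerald-positive.

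Regions picked in one library were high in the other, which did not take part in that choice. The Emerald-negative library alone reached a signal of 25 at 762 regions, whose median in the Emerald-positive library was 24.6, against 7.84 at the regions it did not pick. Of these 762, 759 lay above that 7.84. In the reverse direction 786 regions reached 25 in the Emerald-positive library, with a median of 24.3 against 7.20 in the Emerald-negative library. The lists shared 372 regions, 48.8% of the Emerald-negative and 47.3% of the Emerald-positive list. Of the regions that the Emerald-negative library did not pick, 1.97% reached 25 in the Emerald-positive one, and in reverse 1.86% did. These shares of unpicked regions were 0.069% and 0.028% at a signal of 50, and 0.037% and 0.028% at 100. At a signal of 50 per library the lists shared 101 regions, 94.4% of the 107 in the Emerald-negative and 87.1% of the 116 in the Emerald-positive list. At 100 they shared 33, or 84.6% of 39 and 80.5% of 41. The shared part was larger at 50 and at 100 than at 25.

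The strongly marked regions were spread over all 18 chromosomes, and their longest clusters lay on a few of them. On chromosome 13 they made up 5.75% of regions (64), on chromosome 4 4.47% (71) and on chromosome 7 3.43% (54), and on the other 15 chromosomes between 1.85% (chromosome 10) and 3.16% (chromosome 12). A run is defined here as at least 2 strongly marked regions whose neighbouring midpoints are under 1 Mb apart. By this measure 373 of the 612 (60.9%) lay in 113 runs, of which 65 held 2 regions, 37 held 3 or 4, and 11 held 5 or more. Of the other regions on these chromosomes, 32.4% lay within 1 Mb of a strongly marked one. Windows under 10 kb apart can share reads, and 99 of the 612 had another strongly marked region that close. Of the 559 kept at least 10 kb apart, 302 lay in runs. Regions at 100 or more lay in runs more often than those below: the share was 49.3% from 50 to 60, 65.6% from 60 to 100, 94.4% from 100 to 200 and 84.6% at 200 or more. Without the 11 runs of 5 or more, chromosome 4 fell to 1.32%, the lowest of the 18, and chromosome 13 to 2.87%.

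**Figure D1:**
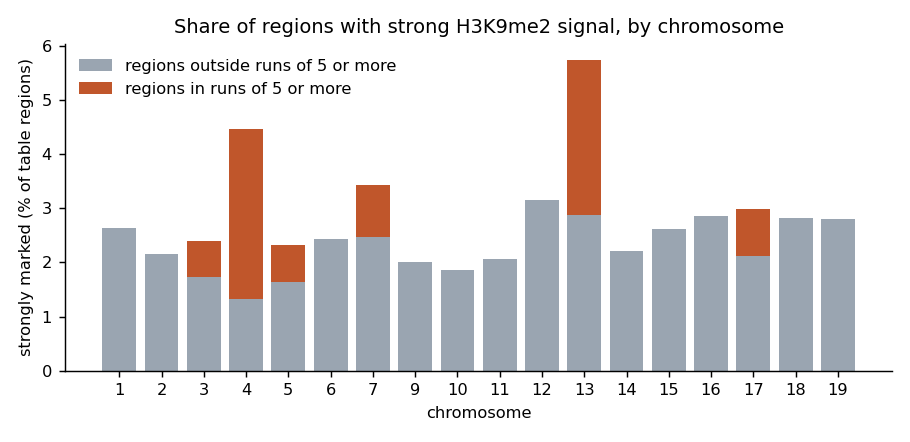
Share of table regions on each chromosome (y axis, percent) that were strongly marked, divided into those in runs of 5 or more (orange) and the rest (grey). Chromosomes 13 (5.75%) and 4 (4.47%) stand highest, and the excess of chromosome 4 lies in its runs.

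The longest run was on distal chromosome 4, at chr4:144999487-147184508. All 44 regions that the table lists across its 2185 kb were strongly marked, with a summed signal of 86.0 to 335 and a median of 197, and 42 of them stood at 100 or more. They held 16.2% of the signal of all 612. Neighbouring midpoints lay a median of 28.8 kb apart, so the marking was seen at separate windows along the whole stretch. The level was lowest toward the far end: taken in order of position, medians were 211 in its first 15 regions, 202 in the next 15 and 150 in the last 14.

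The nearest region before the chromosome 4 run, 103 kb away at chr4:144896307-144896934, had a signal of 31.6, and the nearest after it, 39.2 kb away at chr4:147221910-147223448, had 18.7. In the 1 Mb before the run 10 regions had a median of 28.7, and in the 1 Mb after it 32 regions had a median of 9.09 and none exceeded 20.9. The region with the most reads, chr4:146649033-146650398, had a signal of 165 in Emerald-positive cells against 170 in Emerald-negative ones. Its signal lay in broad shoulders on both sides of a middle with few reads, where bins within 1000 bp held 0.441 times the mean signal of the bins farther out.

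Chromosome 13 had a pair of runs. At chr13:65998210-66925360, 18 of the 20 listed regions were strongly marked over 927 kb, with a median signal of 117 and a range of 55.4 to 265, and 15 reached 100. The highest, chr13:66412825-66413039, had 134 in Emerald-positive cells against 131 in Emerald-negative ones. At chr13:61855455-62679044, 14 of 19 listed regions were strongly marked over 824 kb with a lower median of 68.3 and a highest signal of 117 at chr13:62200785-62200999. The 5 listed regions in that span below the threshold had a median of 41.8. Beside the run of 18, the nearest listed region before had 14.6, at 618 kb, and the nearest after had 42.0, at 55.2 kb. Beside the run of 14, the nearest before had 6.74, at 1138 kb, and the nearest after had 43.1, at 46.5 kb. Since a run ends where the signal falls under the threshold, lower values beside it follow from the definition.

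On proximal chromosome 7, at chr7:11590211-12194696, all 8 listed regions over 604 kb were strongly marked, with signals of 96.4 to 192. Before this run the table lists no region for 4338 kb, and the nearest after it had 15.7. A second chromosome 7 run, chr7:49886548-50443829, held 7 of 8 listed regions at 51.6 to 64.4. All 5 listed regions of chr17:17133676-17372837 were strongly marked, at 50.3 to 90.9. In these 3 runs, as on chromosome 4, nearly every listed region was marked.

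In the other 5 runs of at least 5, strongly marked regions were mixed with weaker ones. They were 8 of 22 listed regions at chr3:92870891-94067688, 6 of 17 at chr4:94144071-95512666, 5 of 18 at chr5:26770919-27781325, 5 of 17 at chr5:109524458-110426652 and 5 of 29 at chr17:21201999-22762349. The chromosome 3 run was the strongest of them, with a median of 88.1 and 3 regions at 100 or more, while its 14 weaker regions had a median of 17.3. In the pair of chromosome 5 runs the weaker regions had medians of 43.3 and 38.8, under the threshold but above the 14.8 of all other regions.

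A second group of very strong regions lay at the start of the chromosome sequences, the end that carries the centromere and its satellite repeats in the mouse. Of the strongly marked regions, 21 (3.43%) on 11 chromosomes lay within 1 Mb of the first region listed on their chromosome, against 1.18% of the other regions. They included 11 of the 39 regions at 200 or more, where the chromosome 4 run gave 21. By read number, 8 of the top 10 regions lay there, and 4 of these formed the run at chr11:3023741-3094077, with 493 and 515 at chr11:3067389-3068432, 406 and 436 at chr11:3092559-3094077, 386 and 434 at chr11:3046802-3048089, and 213 and 216 at chr11:3023741-3023991 in Emerald-positive and Emerald-negative cells. The next region, 72.8 kb on, had a summed signal of 5.16. The other 4 were chr14:6036216-6036845 with 359 and 374, chr18:3005258-3006339 with 381 and 354, chr16:3349892-3351627 with 247 and 247, and chr17:3077972-3079350 with 217 and 199. The counting interval of the ratio included equality at each of these 8, and pooled over the 21 regions the log2 ratio was -0.0030 (95% counting interval -0.071 to 0.065). The remaining 2 of the 10 were the region of the chromosome 4 run given above and a sharp peak on chromosome 17.

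Strongly marked regions had fewer listed neighbours than the other regions, though the strongest did not at the scale of 1 Mb. Within 1 Mb the median was 19 for the strongly marked regions and 29 for the other regions. It was 30 for the regions at 100 or more and 18 for those with 40 to 50 of signal. The 100 kb scale is given next for the strongly marked regions. They had a median of 2 other listed regions within 100 kb (quartiles 0 and 3.25), against 5 (2 and 8) for the other regions, while the regions at 100 or more had 3 and those just under the threshold, with 40 to 50 of signal, had 1. Region width differed little, with medians of 989 bp and 1120 bp. Early table rows held more of them: 120 (19.6%) were among the first 1197 rows, which held 4.52% of the other regions, and 39 (6.37%) among the last 1197, which held 5.08%. The meaning of the table's order was not given in the sources used here.

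The mark was nearly equal in Emerald-positive and Emerald-negative cells at the strongly marked regions. Summed signal per region had medians of 30.8 and 29.7, with quartiles of 26.9 to 40.3 and 25.2 to 38.1, and the pooled ratio was 1.03-fold, a log2 ratio of 0.047 (0.022 to 0.071). At the other regions it was 0.014 (0.0050 to 0.024), which left a difference of 0.032 (0.0058 to 0.059). That small difference depended on how the regions were chosen. It stayed at 0.033 (0.0049 to 0.061) for regions at least 10 kb apart and 0.034 (0.014 to 0.054) for a threshold of 40. Without the 10 regions with the most reads it was 0.036 (0.0086 to 0.064), and without the chromosome 4 run 0.052 (0.023 to 0.080). For a threshold of 60 it was 0.026 (-0.0057 to 0.058). It was 0.0057 (-0.020 to 0.032) for the 651 regions with at least 50 reads in all, a choice that weighs reads of both libraries equally, and -0.0050 (-0.043 to 0.033) for a threshold of 100. Choosing by 1 library turned it to that library's side, at -0.18 for Emerald-negative and 0.23 for Emerald-positive. Each library was scaled by 1 constant, so a gain or loss shared by all regions would not be seen. By chromosome the ratio ran from -0.052 (-0.13 to 0.029) on chromosome 11 to 0.20 (0.097 to 0.30) on chromosome 17. These are the extremes of 18 chromosomes. The chromosome 17 value includes chr17:4626258-4626811, with 285 Emerald-positive and 229 Emerald-negative reads and a log2 ratio of 0.63. A value without that region was not calculated.

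Few strongly marked regions differed between the libraries by much. In Emerald-positive cells 58 (9.48%) were higher by 1.5-fold or more, where 22.2% of all regions with reads in both libraries passed that fold, and 29 (4.74%) were lower by as much, where 22% did. Only 8 were 2-fold higher and 5 were 2-fold lower, against 10.8% and 11.4% of all regions. These shares move with depth, since regions with few reads pass a fold more easily. In 1085 regions just under the threshold, with 40 to 50 of signal, 141 were 1.5-fold higher and 87 (8.02%) lower. Of the 110 regions at 100 or more, 3 were 1.5-fold higher, and none was lower. The 95% counting interval lay above 0 at 27 strongly marked regions (4.41%, against 1.8% of all regions) and below 0 at 15 (2.45%, against 1.37%). These shares also depend on depth, since more reads narrow the interval. They were 3.04% and 2.03% in the regions with 40 to 50 of signal, and 3.64% and 1.82% at 100 or more. Squared deviations from the pooled ratio averaged 1.31 times the counting variance at the strongly marked and 1.08 times at the other regions. This value was 1.12 in the regions with 40 to 50 of signal and 1.47 at 100 or more.

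**Figure D2:**
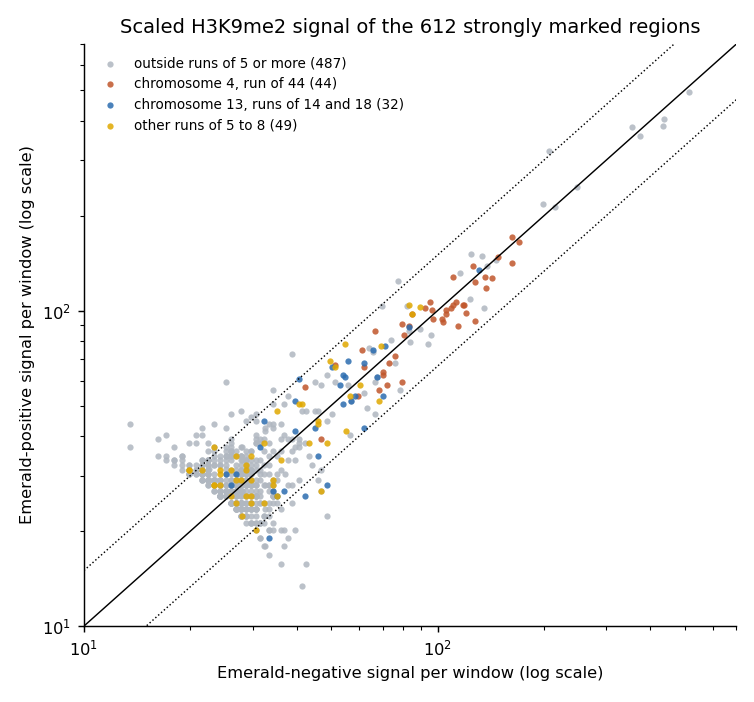
Scaled signal per window in the Emerald-negative (x axis) and Emerald-positive (y axis) library for each of the 612 strongly marked regions, both axes logarithmic, coloured by run. The solid line marks equal signal and the dotted lines 1.5-fold, and the sloping lower left edge is the threshold of 50 on the sum. Regions of the chromosome 4 run (orange) follow the solid line.

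The largest single differences were at regions with summed signals of 50.5 to 84.6. Higher in Emerald-positive cells were chr17:70135564-70137529 with signals of 43.7 and 13.5 (3.23-fold, interval 1.74 to 6.31), chr1:41196771-41197722 with 37.0 and 13.5, chr7:56944055-56945059 with 39.2 and 16.2, chr4:154055810-154057701 with 40.3 and 17.1, and chr4:10839815-10840619 with 59.4 and 25.2. Lower were chr2:5505462-5505726 with 13.4 and 41.4 (0.324-fold, interval 0.156 to 0.622), chr18:76834351-76834980 with 15.7 and 42.3, chr3:120581698-120583472 with 15.7 and 36.0, chr13:74738073-74740224 with 22.4 and 48.6, and chr7:120720324-120720591 with 17.9 and 36.9. They are the extremes of 612 and are given as a description.

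Within the runs the libraries also stayed close. The chromosome 4 run of 44 had 3770 Emerald-positive and 4861 Emerald-negative reads, a log2 ratio of -0.053 (-0.12 to 0.0082), with 28 regions lower and 16 higher in Emerald-positive cells. Some of these windows lie close enough to share reads, and for its regions at least 10 kb apart the value was -0.067 (-0.14 to 0.0038). Of the 11 runs of 5 or more, the interval held 0 in 9. The exceptions were the chromosome 7 run of 8, 1.19-fold higher in Emerald-positive cells (log2 0.25, 0.078 to 0.41, higher at 7 of 8 regions), and the chromosome 13 run of 14, 0.856-fold (log2 -0.22, -0.40 to -0.044, lower at 9 of 14). For the regions of that chromosome 13 run that are at least 10 kb apart the value was -0.19 (-0.38 to -0.0048), and windows closer than that share reads. The chromosome 13 run of 18 stood on the other side at 0.096 (-0.025 to 0.22).

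Over all 48 runs of 3 or more, 30 were higher and 18 lower in Emerald-positive cells, with intervals above 0 in 5 and below 0 in 2. Among the smaller ones, the 3 regions of chr17:15127208-15190229 were each higher in Emerald-positive cells. Their signals were 47.0 and 30.6 at the first region, 47.0 and 26.1 at the second, and 48.2 and 27.9 at the third, with a pooled log2 ratio of 0.75 (0.35 to 1.15). These 3 windows lie over 30 kb apart and share no reads. This run was singled out after its values were seen. At chr7:120720324-122261113, also 3 regions, the ratio was -0.57 (-1.05 to -0.11).

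**Figure D3:**
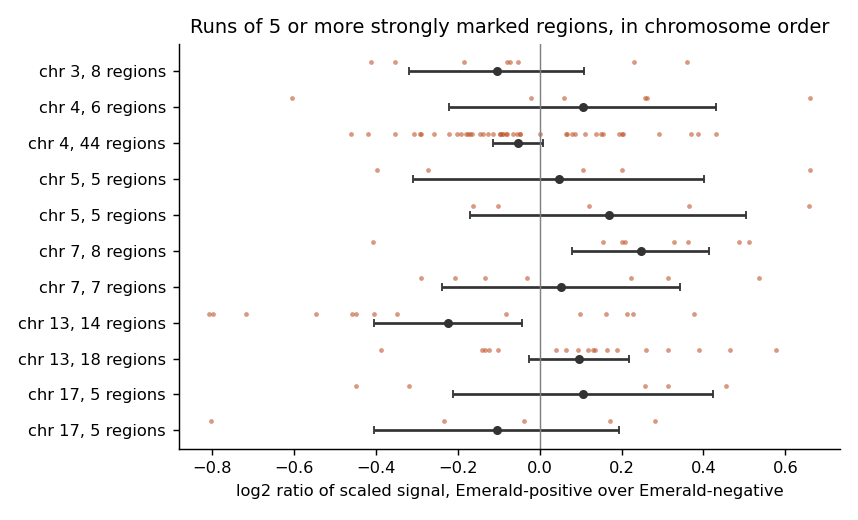
Log2 ratio of scaled signal, Emerald-positive over Emerald-negative, for the 11 runs of 5 or more strongly marked regions. Black points are pooled ratios with 95% counting intervals and orange points are single regions. The interval lies above 0 for the chromosome 7 run of 8 and below 0 for the chromosome 13 run of 14.

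Strongly marked regions in runs and those outside runs, with no other strongly marked region under 1 Mb away, differed a little in the ratio. Pooled over the 373 regions in runs it was 0.0089 (-0.021 to 0.038), and over the 239 outside runs 0.13 (0.089 to 0.18), a difference of -0.13 (-0.18 to -0.072). When regions were chosen by total reads, the difference was -0.084 (-0.14 to -0.030). It was 0.063 (0.0090 to 0.12), with the sign turned, when they were chosen by the Emerald-negative library alone. This comparison was added after the data were seen.

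Strongly marked regions had a flatter average profile than the rest. The centre-to-flank ratio, the mean signal per bin within 1000 bp of the middle over that of the other bins, was 0.977 (0.947 to 1.01) in the Emerald-positive library and 0.938 (0.911 to 0.966) in the Emerald-negative one. In the other regions it was 0.654 (0.645 to 0.663) and 0.630 (0.622 to 0.638). The typical strongly marked region still had less signal at its middle, with medians of 0.696 and 0.703 for the regions' own ratios, and only 166 of 612 (27.1%) had more signal per bin at the centre than in the flanks, against 24.5% of the others. Regions with many reads or sharp peaks raised the average, which still stood above that of the other regions without them. It was 0.840 and 0.831 without the 10 regions with the most reads, and 0.914 and 0.895 without the 2 highest ratios. In the regions with 40 to 50 of signal, just under the threshold, it was 0.746 and 0.694. Between the libraries the centre-to-flank ratio differed by a log2 value of 0.060 (-0.0027 to 0.12, Emerald-positive over Emerald-negative) at the strongly marked and 0.055 (0.028 to 0.082) at the other regions.

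**Figure D4:**
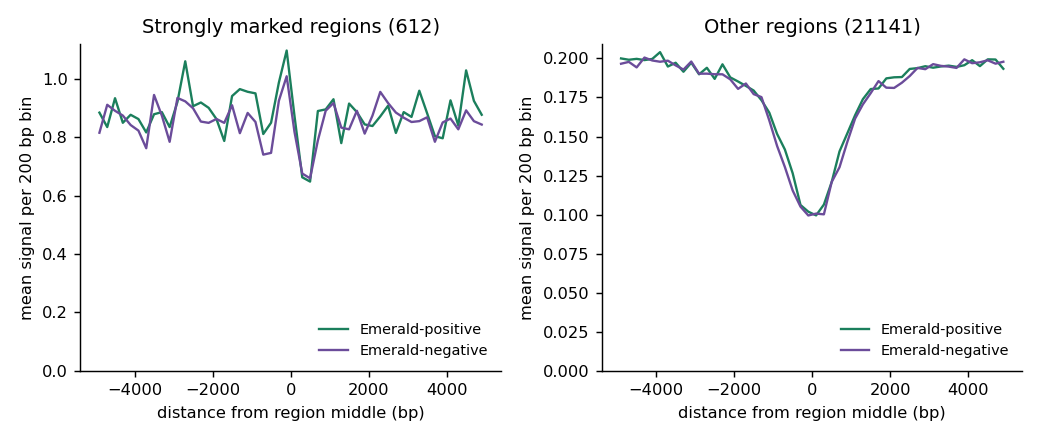
Mean signal per 200 bp bin against distance from the region middle in base pairs, for the 612 strongly marked regions (left) and the 21141 other regions of the same chromosomes (right), in the Emerald-positive (green) and Emerald-negative (purple) library. The y axes differ in scale. In the mean of the strongly marked regions, the dip seen at the middle of the others is interrupted by a narrow rise. This rise rests mostly on the 10 regions with the most reads. Without them, Emerald-positive means were 0.667 within 400 bp of the middle, 0.700 from 400 to 1000 bp and 0.797 from 1000 to 2000 bp. The Emerald-negative means at these distances were 0.667, 0.649 and 0.773.

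Shape varied widely between strongly marked regions. The median region had reads in 31 of its 50 bins and its highest bin held 8.30% of its signal. More reads fill more bins, so these values follow in part from the threshold. They were 27 bins and 9.29% in the regions with 40 to 50 of signal, and 12 bins and 16.1% in all other regions. In the runs of 5 or more the median number of bins with reads was 39, and no region had over 14.1% of its signal in 1 bin. Of the 125 regions in these runs, 69 stood at 100 or more, a level at which the median over all such regions was 43 bins. The chromosome 7 run of 8 was the one run with more signal at the centre than in the flanks at every region, with ratios of 1.13 to 2.70. The 18 regions of the chromosome 13 run of 18 all lay below 1, from 0.170 to 0.914.

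At 44 strongly marked regions (7.19%), 1 bin of 200 bp held at least 20% of the signal. The share was 33.2% in the other regions, where a few reads in 1 bin suffice. It was 2.40% in the regions with 40 to 50 of signal and 8.18% at 100 or more. The windows of the 44 show 41 sites over 1 kb apart on 17 chromosomes, and none lay in a run of 5 or more. The same bin was the highest in both libraries at 34 of the 44, and the profiles of the libraries over the 50 bins had a median correlation of 0.903, a description of bins within single windows. At the other 568 regions the highest bin was the same at 43, and the median correlation was 0.116. The 44 were chosen on the signal of both libraries together, which favours a shared highest bin and a high correlation. The contrast with the 568 is therefore a description and no check that the peaks recur. The peak bins were not tied to the region middle, as 13 of 44 lay within 1000 bp of it.

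The highest centre-to-flank ratio was at chr17:4626258-4626811, with 320 in Emerald-positive cells against 207 in Emerald-negative ones, 40.8% of it in 1 bin, and a ratio of 60.7. It was 1.55-fold higher in Emerald-positive cells (interval 1.29 to 1.85). Next came chr12:70462654-70462920 with 58.0, chr11:53953316-53954466 with 28.3, chr18:47156852-47158604 with 16.7 and chr5:89965130-89965358 with 10.4. Of these only the chromosome 18 region also had an interval above 0 between the libraries, with 72.9 and 38.8 (1.88-fold, 1.26 to 2.83).

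Signal at the sharp peaks was higher in Emerald-positive cells. At the 41 sites the highest bin held 792 Emerald-positive and 727 Emerald-negative reads, a log2 ratio of 0.44 (0.29 to 0.58), and it was higher in Emerald-positive cells at 31 sites and lower at 10. Without the site with the most reads it was 0.40 (0.24 to 0.56). With peaks found by reads instead of scaled signal it was 0.41 (0.26 to 0.56) over 41 sites. With peaks found in the Emerald-negative library alone, a choice that favours that library, it was 0.23 (0.092 to 0.37) over 52 windows. Peaks found in the Emerald-positive library alone, which favours that library instead, gave 0.64 (0.51 to 0.78) over 68 windows. All these peaks were sought among the strongly marked regions. The threshold on scaled signal favours Emerald-positive reads, so these alternatives do not remove that lean. In the 568 strongly marked regions without such a peak the pooled log2 ratio was 0.021 (-0.0047 to 0.047), next to the 0.014 of the other regions. The peaks were picked out after their values were seen, and no source used here says whether identical reads were removed, so the intervals may be too narrow. A difference in copied reads between the libraries was not tested.

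Some peaks appear in several windows. Of the 53 pairs of neighbouring strongly marked regions under 10 kb apart, 23 had their highest bin at the same place within 200 bp. On chromosome 12, the windows of chr12:70457362-70458538, chr12:70462654-70462920 and chr12:70464927-70465184 hold 89.7, 90.6 and 93.3 of signal, with the highest bin 4500 bp after the middle of the first and 500 bp before that of the second and 2700 bp before that of the last. One peak thus made an empty centre in one window and a centre-to-flank ratio of 58.0 in the next.

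At the other extreme, 45 strongly marked regions (7.35%) had a centre at or below 0.2 of the flank, and 8 had no read within 1000 bp of the middle. The share at or below 0.2 was 30.1% in the other regions, where few reads make an empty middle common. It was 6.91% in the regions with 40 to 50 of signal, close to that of the strongly marked ones. Empty centres numbered 5628 in the other regions, 11 of them at 40 to 50 of signal. Of the 8 strongly marked regions with an empty centre, those with the most reads were chr4:118215625-118217556, chr12:70457362-70458538, chr4:10839815-10840619, chr9:103253109-103255102 and chr5:114626334-114626644. All 5 had nearly all signal on one side, from 89.6% to 97.6%. At chr4:118215625-118217556 the signals were 44.8 in Emerald-positive cells against 48.7 in Emerald-negative ones, with 97.6% to the right of the middle in reading order of the chromosome. Over all strongly marked regions 52 (8.50%) had at least 80% of their signal on one side, 29 to the left and 23 to the right, and 27 of these were sharp peaks. The share was 17.6% in the other regions, where few reads make one-sidedness common, and 3.87% in the regions with 40 to 50 of signal.

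**Figure D5:**
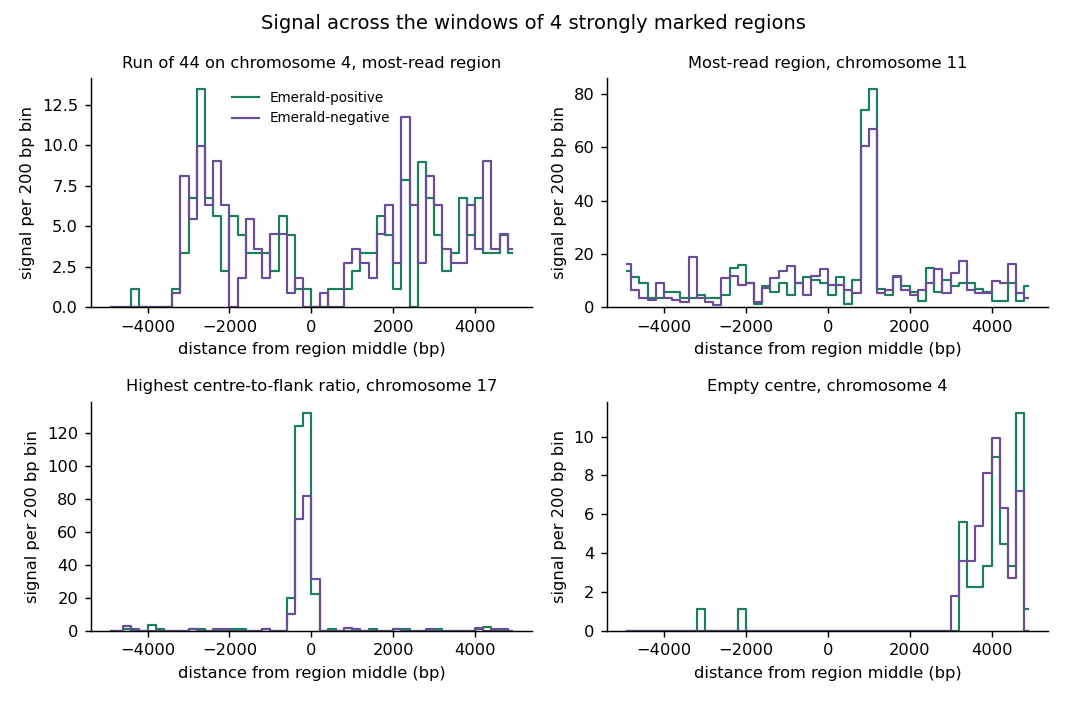
Signal per 200 bp bin against distance from the region middle in base pairs at 4 strongly marked regions, in Emerald-positive (green) and Emerald-negative (purple) cells, with y axes of different scale. The most-read region of the chromosome 4 run is broad with few reads at its middle, the most-read region of all (chromosome 11) has a peak 1100 bp from its middle over a broad base, the chromosome 17 region is a central peak, and the last has all but a few reads on one side.

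The remaining regions with the most reads in their runs are given as a description. Signals in Emerald-positive and Emerald-negative cells were 103 and 89.1 at chr7:12098964-12099959, 51.5 and 68.4 at chr3:93594169-93594797, 62.7 and 54.0 at chr13:62200785-62200999, 50.4 and 40.5 at chr17:17332187-17334260 and 44.8 and 45.9 at chr17:22734658-22736084. In the weaker runs they were 33.6 and 36.0 at chr5:110172362-110174076, 34.7 and 29.7 at chr7:50421907-50423836, 24.6 and 32.4 at chr5:27779484-27781325 and 29.1 and 27.9 at chr4:94144071-94144285. The counting interval of the ratio included equality at each of these 9. With so few reads it also allowed sizeable differences, such as 0.510 to 1.10-fold at chr3:93594169-93594797 and 0.426 to 1.33-fold at chr5:27779484-27781325.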

How the data were processed

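H3K9me2 ChIP-seq signal from 1 library of sorted Emerald-positive and 1 of Emerald-negative MC1-ZE7 cells was taken as deposited by the authors: a scaled signal in 50 bins of 200 bp for 23946 regions, per the file headers. The build is mm9 per the submitters' processing notes. Duplicate removal, alignment, the total used for scaling and how regions were picked were not given in the sources used here. Every signal value was a whole multiple of 1 step per library (1.12 and 0.902) within 0.02, so whole reads were recovered. Strongly marked regions, a threshold of 50 on the sum over both libraries, and all lists were chosen with earlier results of these data known. Ratios are of scaled reads without a pseudocount, with exact (Clopper-Pearson) 95% binomial intervals. Intervals of differences and of centre-to-flank ratios are normal approximations on the log scale. Regions named are the 10 with the most reads, the most-read of each run of at least 5, the 5 highest and 5 lowest ratios between libraries and centre-to-flank ratios, and the 3 on each side of the threshold. The interval, run and read-recovery functions were tested on simulated data. Alternatives covered the threshold, overlapping windows, choice by 1 library, scaling, bins, fold, gap and centre width. Choice by total reads, and leaving out the chromosome 4 run, the 2 most peaked regions or the 44 with a sharp peak, were added after seeing the data. The software was scipy 1.17.1, numpy 2.4.6, matplotlib 3.10.9 and pandas 2.3.3 under Python 3.11.15. No gene names and no sequence are given, since no mm9 genome was used here.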

Additional observations from a re-analysis of the deposited data

How the results depend on the processing

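The threshold sets how many regions enter: 1697 at 40, 267 at 60 and 110 at 100, with 1382, 168 and 92 of them in runs. The 58 regions at least 1.5-fold higher and 29 lower became 199 and 116 at 40, 18 and 7 at 60, and 3 and 0 at 100. They were 8 and 5 at 2-fold, 152 and 125 in the bins within 1000 bp, where few reads remain, and 46 were lower in the bins beyond 1000 bp. Chosen by the Emerald-negative library alone, 11 were higher and 156 lower, the pooled log2 ratio turned to -0.14 (from 0.047), the difference from the other regions to -0.18 (from 0.032) and the other regions stood at 0.044. Chosen by the Emerald-positive library alone, 216 were higher and 5 lower, with 0.22, 0.23 and -0.014; a choice by 1 library favours that library by construction. The difference was -0.0050 at a threshold of 100, where the pooled ratio was 0.014, and 0.0057 when regions were chosen by total reads. The pooled ratio was 0.095 in the bins within 1000 bp (other regions 0.062) and 0.021 without the 44 sharp peaks. Division by each library's total gave 0.0022 for the other regions. The difference between regions in runs and outside turned from -0.13 to 0.063 when chosen by the Emerald-negative library; the cause was not tested.

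Centre-to-flank ratios (0.977 Emerald-positive, 0.938 Emerald-negative) were 0.865 and 0.819 at a threshold of 40, 1.08 and 1.03 at 60, and 1.25 and 1.16 at 100. They were 1.03 and 1.004 for a centre of 400 bp, 0.696 and 0.703 as medians of single regions, 0.840 and 0.831 without the 10 most-read, 0.914 and 0.895 without the 2 most peaked, 0.895 and 0.879 without the 44 sharp peaks and 1.02 and 0.971 without the chromosome 4 run. Chosen by the Emerald-negative library, the Emerald-negative value was 0.887, and chosen by the Emerald-positive library, the Emerald-positive value was 0.923. No paired analysis was possible because there is 1 library per population, and for the same reason none could be left out. With a median of 27.5 and 33 reads, 1.5-fold differences of single regions near the threshold lie within counting error.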
